A study of Mus musculus with 6 samples.

Results

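Itih5, P2ry14, Adamdec1 and Sptssb are 4 genes of the cultured embryonic mouse intestine whose signal was far lower once the transcription factor BARX1 was expressed there. They were chosen by their array values: high in control intestine cells and lower by more than 2 log2 units in intestine cells expressing BARX1. They are 4 of the 12393 genes measured, and 5 of the 22690 probe sets, Sptssb having 2 and the others 1 each. The levels that chose them are therefore given as a description, without a test.

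The study measured total RNA on 6 Affymetrix arrays, 2 biological replicates in each of 3 groups, from C57BL/6 embryos taken at embryonic day 13.5. Gut tissue was dissociated with collagenase, dispase and trypsin to reduce the endoderm, and the cells grew for 3 days in medium with 20% fetal bovine serum. The Barx1 intestine group came from embryos with both Bapx1+/Cre and Rosa26+/Barx1, in which the Cre recombinase of the Bapx1 (Nkx3-2) locus releases a Barx1 transgene at Rosa26. The stomach and intestine groups were controls that held only one of those alleles, and which one is not given for each array. Bapx1 is a gene of the embryonic gut mesenchyme, and such cultures can also hold epithelial, neural and blood-derived cells, in which the transgene is not known to be active. In RNA of whole cultures, fewer cells of a type and less RNA per cell cannot be told apart. The p-values below set a difference of group means against the spread between replicate samples, pooled over the 3 groups. How many embryos each sample held is not given in the sources used here.

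BARX1 is a homeodomain protein of the stomach mesenchyme, where it is needed for stomach identity and for smooth muscle formation, and the embryonic intestine normally lacks it. The 4 genes have unrelated products. Itih5 encodes a secreted heavy chain of the inter-alpha-trypsin inhibitor family, whose members bind the matrix polysaccharide hyaluronan. P2ry14 encodes a G-protein-coupled receptor for UDP-glucose and related nucleotide sugars. Adamdec1 encodes a secreted metalloprotease of the ADAM group, known from human gut macrophages and from fibroblasts of the human and mouse intestinal lamina propria. Sptssb encodes a small subunit of serine palmitoyltransferase, the enzyme of the first step of sphingolipid synthesis.

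On a log2 scale, the arrays had medians of 6.93 to 6.98 and lower quartiles of 4.72 to 4.76, and a level near or under that quartile was not shown to be above background. The number of arrays limits the precision. Replicates differed over all genes with an SD of 0.149 (stomach), 0.232 (intestine) and 0.199 (Barx1 intestine). Barx1 itself read 5.13 and 4.93 in intestine, 8.66 and 8.79 in Barx1 intestine and 9.82 and 9.79 in stomach, so it was higher in the intestine cells labelled as overexpressing it than in control intestine cells. The mean level of 12 smooth muscle genes was 10.9 to 11.2 on every array.

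Itih5, the hyaluronan-binding heavy chain, had log2 levels of 8.66 and 9.40 on the intestine arrays, 5.18 and 5.20 on the stomach arrays, and 4.02 and 4.75 on the Barx1 intestine arrays. Both intestine arrays were high and all others low, with a gap of 3.91 between the nearest intestine and Barx1 intestine arrays. Group means were 9.03 ± 0.52 for intestine, 5.19 ± 0.01 for stomach and 4.39 ± 0.52 for Barx1 intestine (SD, n = 2 each). The difference of Barx1 intestine from intestine was -4.65 ± 0.74 (SD of the difference), or 25.1-fold, the most negative of all 12393 genes. Stomach differed from intestine by -3.84 ± 0.52 (14.4-fold). Barx1 intestine differed from stomach by -0.80 ± 0.52, a value that was -0.43 without Barx1 intestine replicate 1 and -1.17 without Barx1 intestine replicate 2. Since the mean in Barx1 intestine lay under the lower quartile, the fold from it may understate the change.

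P2ry14, the nucleotide-sugar receptor, read 7.19 and 7.28 in intestine, 3.82 and 3.92 in stomach, and 4.24 and 4.36 in Barx1 intestine. Its intestine replicates were the closest of the 4 genes, and the groups did not overlap. Barx1 intestine differed from intestine by -2.93 ± 0.10 (7.64-fold) and stomach from intestine by -3.36 ± 0.09 (10.3-fold). Barx1 intestine differed from stomach by 0.43 ± 0.11, but both groups lay under the lower quartile of their arrays. This order was therefore not shown to be one of expression, and both folds from intestine may understate the change.

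Adamdec1, the secreted metalloprotease, read 7.16 and 7.91 in intestine, 5.05 and 4.36 in stomach, and 5.13 and 5.03 in Barx1 intestine. Intestine stood apart from both other groups, whose arrays overlapped. The difference from intestine was -2.46 ± 0.54 in Barx1 intestine (5.48-fold) and -2.83 ± 0.72 in stomach (7.12-fold). Barx1 intestine and stomach differed by 0.38, less than the spread of that difference (SD 0.49), and by 0.03 without stomach replicate 2 or 0.72 without stomach replicate 1. The stomach mean of 4.71 ± 0.49 lay at the lower quartile, and the Barx1 intestine mean of 5.08 ± 0.07 was a little above it.

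Sptssb, the serine palmitoyltransferase subunit, read 9.01 and 8.58 in intestine, 7.66 and 7.95 in stomach, and 6.04 and 6.02 in Barx1 intestine. All 3 groups were separate, with Barx1 intestine lowest, and all stood above the lower quartile. Barx1 intestine differed from intestine by -2.76 ± 0.30 (6.79-fold) and from stomach by -1.78 ± 0.21 (3.43-fold), whereas stomach differed from intestine by -0.99 ± 0.36 (1.98-fold). Its second, dimmer probe set gave 6.76 and 6.25 in intestine, 5.85 and 6.07 in stomach and 3.92 and 4.62 in Barx1 intestine, with differences of -2.24, -0.55 and -1.69 for Barx1 intestine from intestine, stomach from intestine and Barx1 intestine from stomach. Both of its Barx1 intestine values lay under the lower quartile, so the first and last of these differences may understate the change. The name of an intestine gene thus holds less for Sptssb, which stomach cells also showed.

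**Figure D1:**
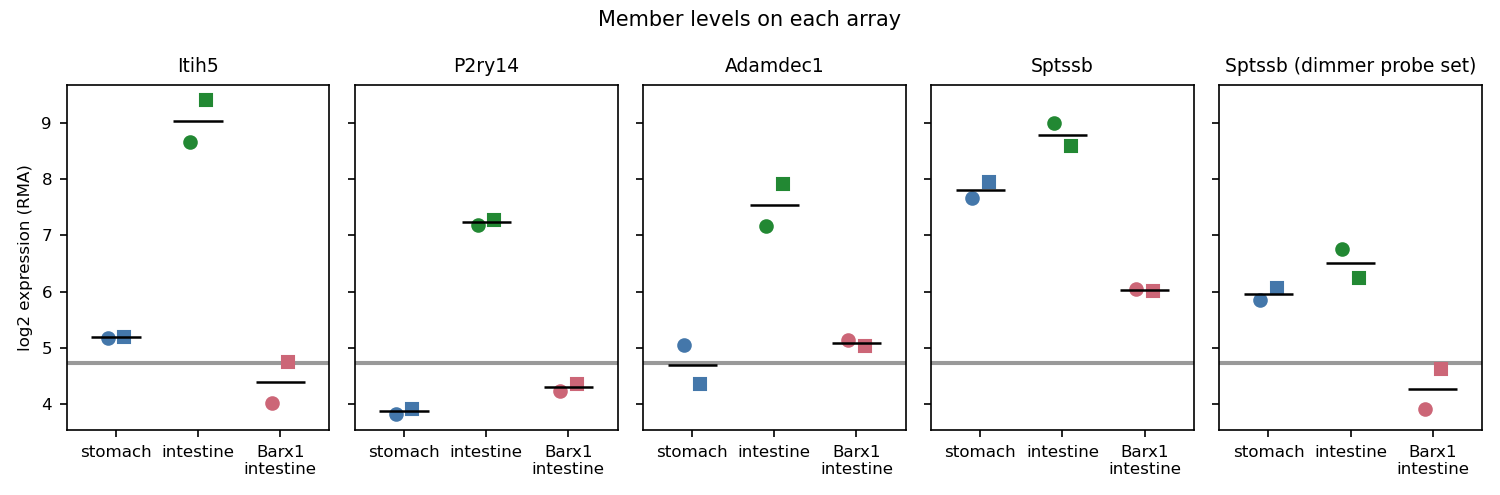
Log2 expression of each probe set of Itih5, P2ry14, Adamdec1 and Sptssb on the 6 arrays. Circles are replicate 1, squares replicate 2, black bars the mean of 2 arrays, and the grey band the lower quartile of the arrays (4.72 to 4.76); the stomach lies near the band for Itih5, P2ry14 and Adamdec1, but at 7.66 and 7.95 for Sptssb.

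The stomach thus divided the 4 genes. For Itih5, P2ry14 and Adamdec1 the level in Barx1 intestine lay within 0.80 of the stomach level, while the intestine lay 2.83 or more above the stomach. For each of these genes the mean in stomach, Barx1 intestine or both was at or under the lower quartile. Alike expression in these groups was therefore not shown. For Sptssb, Barx1 intestine lay 1.78 under the stomach, further from it than the intestine was above it. The 2 comparisons with intestine share its arrays, so their values are given side by side and were not related to each other. The 6-array profiles, each centred on its own mean, differed least between P2ry14 and Adamdec1 (root mean square difference 0.39 log2 units) and most between Itih5 and Sptssb (1.26).

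**Figure D2:**
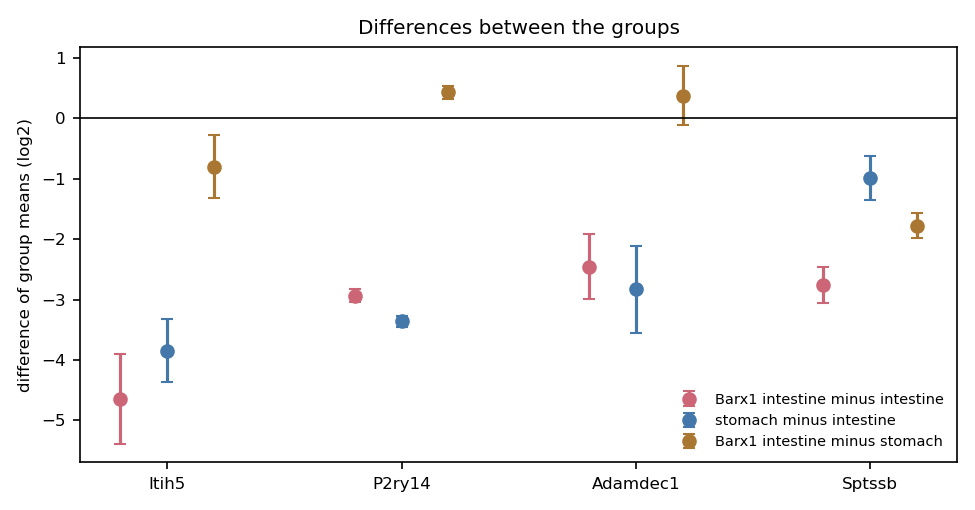
Differences between group means on the log2 scale for the 4 genes, from the probe set with the highest mean. Error bars are the SD of the difference from 2 arrays per group; the difference of Barx1 intestine from stomach is -0.80, 0.43, 0.38 and -1.78 for Itih5, P2ry14, Adamdec1 and Sptssb.

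Among all genes tested, 34 (0.274%) were lower in Barx1 intestine than in intestine by more than 2 log2 units, the limit used in the choice, and 30 of them are not among the 4. The arrays did not overlap, with Barx1 intestine lower, for 22.4% of all genes. By limma with adjustment over all genes, 2.12% passed as lower at an adjusted p under 0.05. Of the 34 genes past the limit 25 passed, the 4 among them, and since the same arrays chose the 4, nothing is read from this. The ranks from the most negative difference were 1 for Itih5, 5 for P2ry14, 6 for Sptssb and 16 for Adamdec1. Nearest to the limit were Aldh1a3, a retinoic acid-synthesising enzyme (-2.01), and Gbp7 (-2.0) inside it, and the collagenase gene Mmp13 (-1.99) and the chemokine gene Cxcl1 (-1.99) outside. Of the other 30, 5 stood in the list of macrophage and leukocyte markers (C1qa, C1qb, C1qc, Fcgr3 and Aif1). The list of enteric neurons and glia held 2 of them (Ednrb and Erbb3). That of subepithelial and lamina propria fibroblasts held 1 (Apoe, which macrophages also express). The lists are not complete, so these counts do not give the share of any cell type among the 30. Ly86 (-3.22), Fcgr1 (-2.41) and Msr1 (-2.37), for instance, were past the limit and stood in no list. In the comparison of stomach with intestine the arrays did not overlap, with stomach lower, for 29.6% of all genes, and in that of Barx1 intestine with stomach, with Barx1 intestine lower, for 28.5%.

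**Figure D3:**
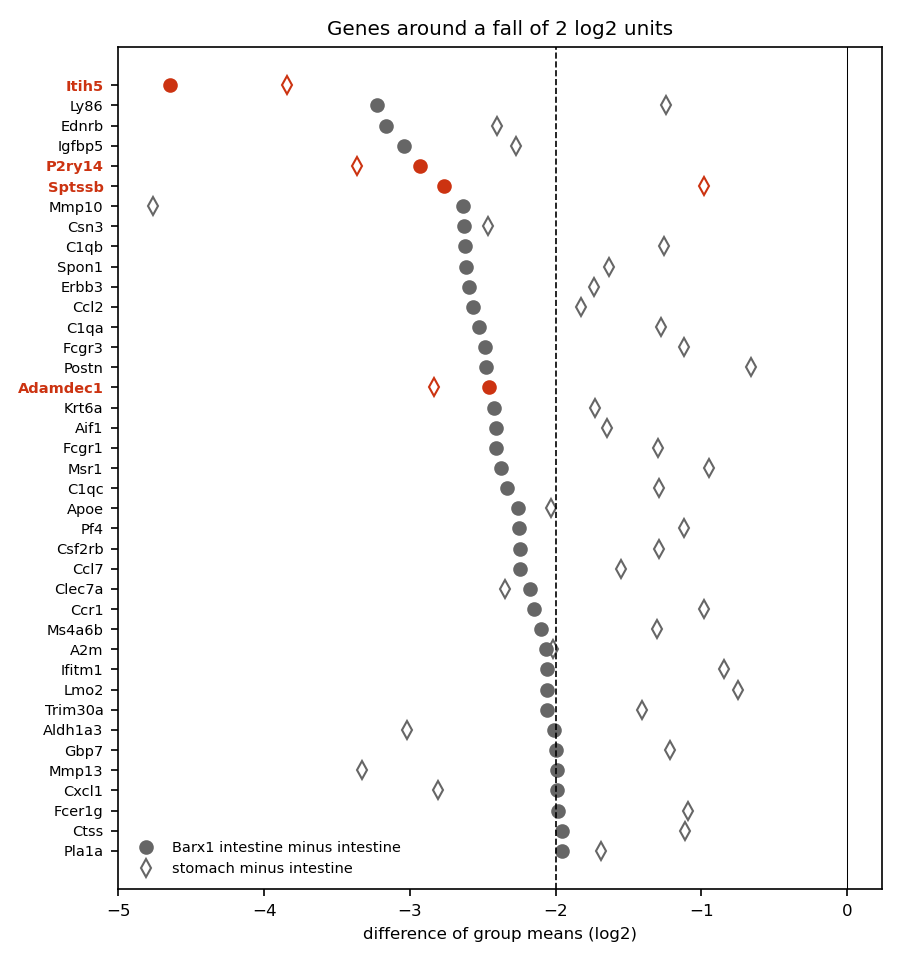
The 34 genes that were lower in Barx1 intestine than in intestine by more than 2 log2 units, and the 5 next. Filled circles give that difference, open diamonds the difference of stomach from intestine, red marks the 4 genes, and the dashed line is at -2; the diamond of Sptssb lies at -0.99 and those of the other 3 between -3.84 and -2.83.

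Promoter sequences are shown because the 4 genes were lower together when a homeodomain protein was added, and homeodomain proteins commonly bind sites with a TAAT core. Windows of 300 bases, from 250 before to 50 after an annotated start, were found in RefSeq (GRCm38.p6) for 3 of the 4 genes, with 1 window for Itih5, 4 for P2ry14 and 1 for Sptssb. Lower case marks the window and capitals mark TAAT or its reverse complement ATTA. The windows below are those of Itih5 (chr2:10153293-10153592, plus strand), the farthest upstream start of P2ry14 (chr3:59153443-59153742, minus strand) and Sptssb (chr3:69859845-69860144, minus strand).
Itih5: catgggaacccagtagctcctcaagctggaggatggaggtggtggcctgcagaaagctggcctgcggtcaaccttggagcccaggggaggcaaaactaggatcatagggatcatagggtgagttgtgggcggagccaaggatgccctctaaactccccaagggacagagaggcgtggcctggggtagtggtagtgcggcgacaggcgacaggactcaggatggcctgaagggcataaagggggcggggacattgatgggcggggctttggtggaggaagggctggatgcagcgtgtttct
P2ry14: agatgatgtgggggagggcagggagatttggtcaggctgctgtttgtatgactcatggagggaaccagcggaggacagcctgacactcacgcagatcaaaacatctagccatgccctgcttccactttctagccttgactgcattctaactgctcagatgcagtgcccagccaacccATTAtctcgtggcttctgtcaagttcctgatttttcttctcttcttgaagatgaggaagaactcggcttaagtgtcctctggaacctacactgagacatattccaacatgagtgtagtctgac
Sptssb: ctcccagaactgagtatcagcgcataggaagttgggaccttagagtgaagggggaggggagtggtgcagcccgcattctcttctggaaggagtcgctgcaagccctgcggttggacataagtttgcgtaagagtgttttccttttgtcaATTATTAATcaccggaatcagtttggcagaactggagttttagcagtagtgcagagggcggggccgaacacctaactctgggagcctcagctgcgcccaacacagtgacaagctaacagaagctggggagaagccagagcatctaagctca
The Itih5 window held no TAAT on either strand, the P2ry14 window 1, and the Sptssb window 3 that overlap in a single run starting 101 bases before the start. The other 3 windows of P2ry14, of which a pair overlap, held 2, 1 and 2. TAAT occurred in 58% of all 32851 windows, so its presence sets none of these genes apart. The longer motif CAATTA, searched on both strands and overlapping TAAT in part, occurred in 8% of windows and in the Sptssb window 1 time, but in no window of Itih5 or P2ry14. TATAAA occurred in 13.6% of all windows and in 1 of the 4 P2ry14 windows. A match here describes letters and shows no binding, and BARX1 binding was not measured in these data.

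Genes that share a family or pathway with the 4 were listed to see whether their relatives differed too, and the 4 themselves were left out of every count. Of 82 measured relatives, 3 were higher (3.66%) and 5 lower (6.10%) in Barx1 intestine than in intestine by limma, against 1.86% and 2.12% of all genes. Their median difference was -0.02, beside 0.02 over all genes. Of the 8 calls, 0 stayed in all 6 fits that left out 1 array. Without any 1 stomach or Barx1 intestine array no relative passed limma's test (20 to 25 at an unadjusted p under 0.05), without intestine replicate 2 there were 2, and without intestine replicate 1 there were 11.

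In the hyaluronan list, the receptor gene Hmmr, which is also a gene of dividing cells, rose in Barx1 intestine by 0.44 (SE 0.06, adjusted p = 0.023), the 1 call among 20 genes. At an unadjusted p under 0.05, 4 were higher and 3 lower. The nearest relatives of Itih5 stayed near or under the lower quartile, with means of 4.58 to 4.70 for Itih1 and Itih4 and 3.64 to 3.75 for Itih3 and Itih2 in intestine. None of these 4 heavy chain genes passed in any comparison (adjusted p from 0.152 to 0.992). Has2, the hyaluronan synthase of embryonic mesenchyme, read 9.72 and 8.89 in intestine, 10.58 and 10.56 in stomach and 10.51 and 10.59 in Barx1 intestine. It was higher in stomach than in intestine (1.27, SE 0.26, adjusted p = 0.0277) and did not pass in Barx1 intestine (1.25, adjusted p = 0.0608), and its intestine replicates had an SD of 0.59. The stomach arrays also differed from intestine in 6 other genes of the list, with Hmmr (0.57), the inhibitor precursor gene Ambp (0.70, at or under the lower quartile on all arrays) and the synthase gene Has1 (0.33) higher, and Ptx3, a hyaluronan matrix organiser (-1.20), Cemip2, a membrane protein gene linked to hyaluronan breakdown (-0.75), and the receptor gene Cd44 (-0.32) lower.

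Among 17 genes of P2Y receptors and nucleotide handling, P2ry12, an ADP receptor of platelets and microglia, fell in Barx1 intestine by 1.03 (SE 0.18, adjusted p = 0.0438), from levels of 4.47 and 5.0 to 3.8 and 3.62, under the lower quartile. Entpd1, an ectonucleotidase, fell by 0.38 (adjusted p = 0.0474), under the lower quartile throughout. No gene of the list was higher, also at an unadjusted p under 0.05, at which 5 were lower. P2ry6, a UDP receptor gene of macrophages among other cells, read 7.73 and 8.61 on the intestine arrays, 7.63 and 7.40 in stomach, and 6.49 and 6.76 with Barx1 (difference from intestine -1.55, adjusted p = 0.0512). P2ry1, P2ry2 and P2ry4 did not pass in any comparison. Ugp2, whose product makes UDP-glucose, differed by -0.31 in Barx1 intestine (adjusted p = 0.0551), and Ugdh and Uxs1, whose products convert it onward, by -0.06 and 0.02, none of them past the test. Slc35d1, a transporter of nucleotide sugars, was lower in stomach than in intestine (-0.42) and higher in Barx1 intestine than in stomach (0.36). Panx1, a channel for nucleotide release, was lower in stomach than in intestine (-0.27).

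Of 19 ADAM and ADAMTS protease genes, Adam23 (0.78, adjusted p = 0.0345) and Adamts10 (0.47, adjusted p = 0.0308) rose in Barx1 intestine and Adamts15 fell (-0.90, adjusted p = 0.0374). Adamts10 was also higher in stomach than in intestine (0.59) and Adamts15 lower (-0.84), its levels in stomach and Barx1 intestine being under the lower quartile. Adam28 and Adam7, which lie on either side of Adamdec1 on chromosome 14 among the measured genes, showed levels of 4.58 to 4.87 and 4.15 to 4.51 on the 6 arrays. Neither passed in any comparison (adjusted p from 0.0585 to 0.949). Adam12, a protease of mesenchymal cells, was higher in stomach than in intestine (0.36) and lower in Barx1 intestine than in stomach (-0.37), and Adamts7 was lower in stomach (-0.35).

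Of the other measured genes of serine palmitoyltransferase, none passed the test in Barx1 intestine. Sptlc3, Ormdl2 and Ormdl3 were not among the genes measured. Sptssa, which encodes the alternative small subunit, had a mean of 11.10 ± 0.02 in Barx1 intestine against 11.08 ± 0.05 in the control (SD, n = 2 each; difference 0.02, SE 0.06, adjusted p = 0.848). The catalytic subunit genes Sptlc1 (-0.02, adjusted p = 0.866) and Sptlc2 (-0.31, SE 0.07, adjusted p = 0.0689) and the regulator gene Ormdl1 (0.17, adjusted p = 0.298) did not pass. In the list of 26 sphingolipid genes, Cerk, a ceramide kinase, fell by 0.70 (adjusted p = 0.0479), and S1pr3, a sphingosine-1-phosphate receptor, by 0.37 (adjusted p = 0.0409), under the lower quartile throughout. No gene of the list passed as higher, and at an unadjusted p under 0.05 there were 3 higher and 4 lower. In stomach, Sphk1, a sphingosine kinase gene (0.85), and the receptor gene S1pr1 (0.80) were higher than in intestine, and Galc (-0.76), Cert1 (-0.44), Sgpl1 (-0.41) and Ugcg (-0.32), genes of sphingolipid breakdown, transport and glycosylation, were lower. Sphk1 read 7.27 ± 0.02 in Barx1 intestine and 7.32 ± 0.02 in intestine, and was lower in Barx1 intestine than in stomach (-0.90, adjusted p = 0.0123), while Cert1 and Galc were higher there than in stomach (0.41 and 0.63).

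Against the intestine, 8 relatives were higher (9.76%) and 11 lower (13.4%) in stomach, where 8.86% and 8.09% of all genes passed, and 2 of the 19, Hmmr and Sphk1, stayed past the threshold in all 6 fits without 1 array. Without stomach replicate 1 there were 4 calls and without stomach replicate 2 there were 2. Barx1 intestine against stomach gave 3 higher and 2 lower relatives, where 2.56% and 2.64% of all genes passed, and 0 by limma without any 1 array of these groups (12 to 21 at an unadjusted p under 0.05), against 9 without either intestine array. The 3 comparisons share arrays in pairs.

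**Figure D4:**
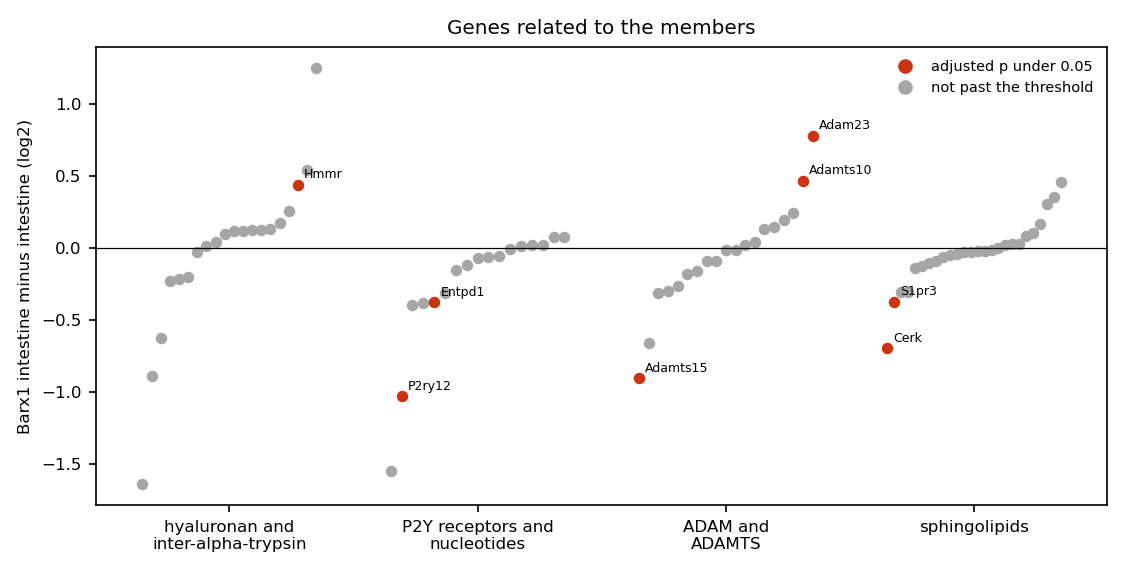
Difference of Barx1 intestine from intestine on the log2 scale for 82 genes related to the 4, a point per gene, in order of size within each list. Red points passed limma's test at an adjusted p under 0.05, and grey points did not; the lowest related gene is Stab1 at -1.64 and the highest Has2 at 1.25, neither of them past the threshold.

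The genes whose centred 6-array values lay nearest to the mean profile of the 4 were sought among all others, by the root mean square difference. Because the 4 were chosen on these arrays, this names genes of similar pattern and tests nothing. The 10 nearest were Csn3, Ednrb, Igfbp5, Erbb3, Ccl2, A2m, Apoe, Ccl7, Spon1 and Aif1, at 0.27 to 0.55 log2 units. From the same mean P2ry14 lay at 0.37, Adamdec1 at 0.44, Itih5 at 0.65 and Sptssb at 0.79. The mean profile thus stands less well for Itih5 and Sptssb, which lay further from it than the 10. Csn3, a milk casein gene, read 6.51 and 7.09 in intestine, 4.52 and 4.14 in stomach and 4.0 and 4.34 in Barx1 intestine. Ednrb and Erbb3 encode receptors of enteric neural crest cells, Igfbp5 binds insulin-like growth factors, and Ccl2 and Ccl7 are chemokines that attract monocytes. The nearest genes to Itih5 (Ednrb, 0.70) and to Adamdec1 (Csn3, 0.28) were among these 10, and those to P2ry14 and Sptssb were not. Nearest to P2ry14 was Aldh1a3 (0.38), whose level in Barx1 intestine of 8.76 ± 0.19 lay between those of intestine (10.77 ± 0.07) and stomach (7.76, arrays 7.76 and 7.75; SD, n = 2 each). Nearest to Sptssb was Postn, a matricellular protein gene (0.26), with 12.43 and 12.66 in intestine, 11.75 and 12.03 in stomach and 9.88 and 10.25 in Barx1 intestine, then Ifitm1 (0.34).

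Marker lists of cell types differed in how far they were lower in Barx1 intestine than in intestine. The median difference was -1.84 for macrophages and leukocytes, -0.82 for endoderm epithelium and -0.26 for enteric neurons and glia. It was -0.23 for mesothelium, -0.06 for intestinal epithelium and -0.01 for smooth muscle. For subepithelial and lamina propria fibroblasts it was -0.01 and for endothelium 0.01. The macrophage and leukocyte list of 18 genes had a mean level of 8.77 and 9.68 on the intestine arrays, 8.37 and 8.07 in stomach and 7.08 and 7.93 in Barx1 intestine. Of its genes 7 passed as lower in Barx1 intestine (38.9%, against 2.12% of all genes), none as higher (16 lower and 0 higher at an unadjusted p under 0.05 by limma), and no marker was under the lower quartile on all arrays. The 7 had limma adjusted p from 0.0323 to 0.0474. Lyz2 differed little (-0.20) and Cd14 the other way (0.51), without passing. How many marker calls stay without 1 array was not counted. Intestine replicate 2 exceeded replicate 1 in this list (9.68 against 8.77), and it was also the higher array for Adamdec1 (7.91 against 7.16) and Itih5 (9.40 against 8.66). P2ry14 was nearly level between them, and Sptssb was higher on replicate 1. The order was not particular to the leukocyte list. Intestine replicate 2 was also the higher for intestinal epithelium (6.34 against 6.01) and fibroblasts (7.45 against 7.34). It was slightly higher for endothelium, enteric neurons and glia, and smooth muscle, and lower for mesothelium and endoderm epithelium. In Barx1 intestine replicate 2 was the higher in the leukocyte list (7.93 against 7.08) and in Itih5 (4.75 against 4.02), while Adamdec1 and Sptssb were nearly level there. The enteric (6.80 against 6.56), smooth muscle and fibroblast lists were also higher on that array, and the remaining lists lower.

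The endoderm epithelium list of 20 genes had means of 8.31 and 7.42 in intestine, 6.52 and 7.09 in stomach and 7.33 and 6.79 in Barx1 intestine. Spint1 was its 1 gene past the test in Barx1 intestine (-1.64), 5% of the list, and Ehf was under the lower quartile on all arrays. This list and Sptssb were both higher on intestine replicate 1. In Barx1 intestine the endoderm list was higher on replicate 1 (7.33 against 6.79), while Sptssb was nearly level (6.04 and 6.02). The mesothelium (6.81 against 6.43), intestinal epithelium and endothelium lists were higher on that array too. Whether the orders of 2 replicates are related was not tested. The list of enteric neurons and glia had means of 7.38 and 7.41 in intestine and 7.07 and 6.98 in stomach. In Barx1 intestine they were 6.56 and 6.80. Of its 14 genes 4 passed as lower in Barx1 intestine (28.6%, against 2.12% of all genes). These were Sox10 (-1.58), Erbb3 (-2.60), Ednrb (-3.17) and Ngfr (-1.34). At an unadjusted p under 0.05 by limma, 7 were lower and 1 higher. Gap43 (0.37), Elavl3 (0.22), Stmn2 (0.18), Ret (0.15) and Uchl1 (0.10) differed the other way without passing. The list of subepithelial and lamina propria fibroblasts, 11 genes, ran from 7.34 to 7.45 in intestine and from 7.16 to 7.28 in stomach. With Barx1 it ran from 7.16 to 7.22. Its 1 call in Barx1 intestine was Sox6 (-0.65), 9.09% of the list against 2.12% of all genes passing as lower. At an unadjusted p under 0.05 by limma, 2 were higher and 2 lower. Apoe of this list, a lipid carrier gene, differed by -2.26 without passing (adjusted p = 0.0617). Pdgfra differed the other way without passing (0.55, adjusted p = 0.0967), and was higher in stomach than in intestine (1.63). Bmp5 and Ccl11 were under the lower quartile on all arrays. Endothelial genes had 1 higher (6.67%, against 1.86% of all genes) and 2 lower (13.3%) of 15, with list means of 5.47 to 5.54 (intestine) and 5.37 to 5.41 (Barx1 intestine). Pecam1, Cdh5, Tek and Tie1 were under the lower quartile on all arrays. Of the intestinal epithelium, mesothelium and smooth muscle lists no gene passed in Barx1 intestine, with 2, 3 and 4 at an unadjusted p under 0.05. The part of these cell types in the levels of the 4 genes was not tested.

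**Figure D5:**
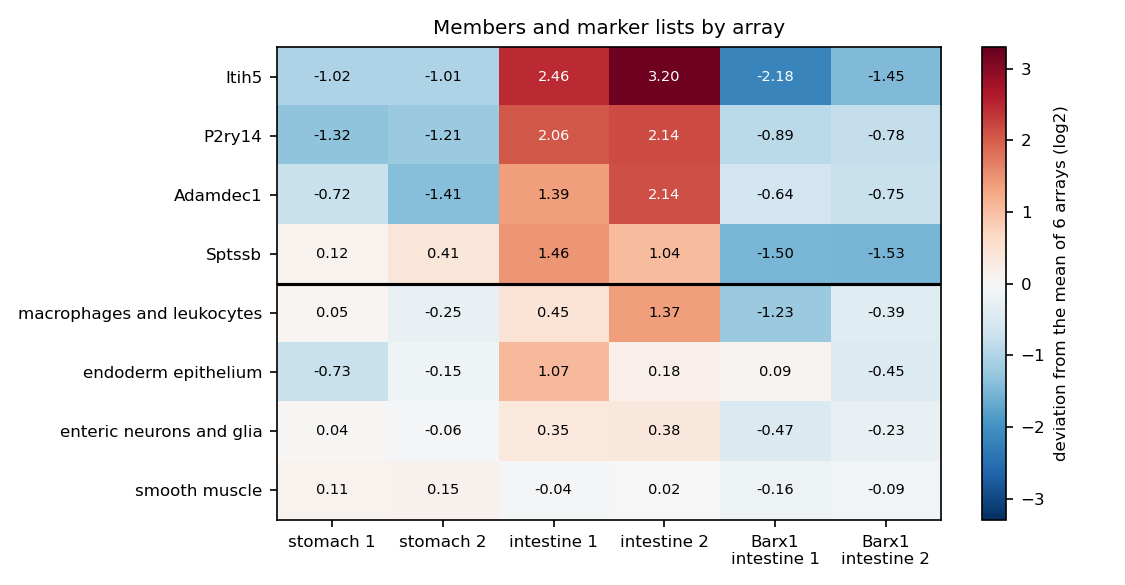
Deviation of each array from the mean of 6 arrays, in log2 units, for the 4 genes (above the line) and for the mean of 4 marker lists (below it). On intestine replicates 1 and 2 the leukocyte list lies at 0.45 and 1.37 and the epithelial list at 1.07 and 0.18. The enteric list lies at 0.35 and 0.38 on those arrays, and the smooth muscle list at -0.04 and 0.02. The 4 genes lie at 1.04 to 3.20 there.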

How the data were processed

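The deposited values are log2 expression per probe set. Per the submitters' processing notes the authors used RMA (version not given in the sources used here). The method subtracts background, forces all arrays onto one distribution and summarises probes, so a shift shared by most genes would not show. The values ran from 2.48 to 14.7, from which the log2 scale was taken. The platform annotation named 1 gene for 20380 probe sets and several for 691. Probe sets with several names, no name or a control name were left out. A gene was read from its brightest probe set by the mean of the 6 arrays, which gave 12393 genes. RefSeq (GRCm38.p6) held the identifiers of 20351 probe sets and gave the gene order.

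The group means of all 6 arrays were fitted together in limma 3.58.1 (lmFit, eBayes) under R 4.3.3. Benjamini-Hochberg adjustment covered all genes of a comparison, and calls had an adjusted p under 0.05. SD is between 2 arrays, and SE comes from limma. The procedure was first run on simulated data drawn from limma's own model, with independent arrays and the same spread in every group. It cannot show how the calls behave where the groups differ in spread. The members and lists were chosen with earlier results of these data known. Genes were named by rule: the 4 members, called relatives and those sharing a name stem, the 3 measured neighbours on each side, the nearest genes in pattern, and those around the limit of 2 log2 units. Ugdh, Ugp2, Uxs1, Stab1, Sptlc1, Sptlc2, Ormdl1 and the single markers were added after their values were seen. The labels do not pair same-numbered replicates, whose deviations correlated at -0.22, -0.06 and 0.20 between groups. Alternatives changed the normalisation, the probe set choice, the filter on dim genes, the variance model, the groups fitted together, the pairing by replicate number and the arrays kept. No scan dates or other batch records were used here.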

Additional observations from a re-analysis of the deposited data

How the results depend on the processing

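The differences of Itih5, P2ry14, Adamdec1 and Sptssb kept their direction when arrays were median-centred or quantile-normalised again and when genes were read as a mean over probe sets. With 2 arrays a group, leaving out 1 cannot move a difference past its SD, so those values say nothing of stability. Counts of calls depended more on the settings. In all, 493 genes passed between Barx1 intestine and intestine, 2100 between stomach and intestine and 644 between Barx1 intestine and stomach. A variance trend gave 1037 in the first and 1189 in the third comparison, and 10 relatives in the third in place of 5. A fit of 2 groups gave 50 genes and 0 relatives in the first (22 relatives at an unadjusted p under 0.05 by limma, and 8 in the fit of 3 groups), and 9 relatives in the third. With the replicate number as a block, 267 genes and 3 relatives passed in the first comparison and 337 and 2 in the third; the numbers were not shown to pair the samples. Leaving out 1 array gave 50 to 466 genes and 0 to 11 relatives in the first comparison, 281 to 1692 and 2 to 19 in the second, and 0 to 727 and 0 to 9 in the third, where 1906 genes passed at an unadjusted p under 0.05 without stomach replicate 2, the array whose loss left 0. The 10 genes nearest in pattern shared 0 with the 10 of highest Pearson correlation to the mean profile over 6 arrays, a measure that ignores size. Signal near background limits the folds of Itih5, P2ry14 and Adamdec1 and of the dimmer probe set of Sptssb.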

Other observations

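The 3 measured genes on each side of Itih5, P2ry14, Adamdec1 and Sptssb were read in RefSeq order (GRCm38.p6). Beside Sptssb on chromosome 3, B3galnt1, a glycosyltransferase gene, differed the other way. It read 9.15 and 9.21 in intestine, 10.02 and 10.19 in stomach and 9.64 and 9.67 in Barx1 intestine, so Barx1 intestine was higher than intestine by 0.47 (SE 0.07, limma adjusted p = 0.0397). The call in stomach against intestine (0.92, adjusted p = 0.00369) stayed in 6 of 6 fits without 1 array, that in Barx1 intestine in 0 of 6. Beside Itih5 on chromosome 2, Pfkfb3, a regulator of glycolysis, fell in Barx1 intestine by 0.63 (SE 0.10, adjusted p = 0.0409; 1 of 6 fits) and was lower in stomach (difference -1.0, adjusted p = 0.00493; 5 of 6 fits). Kin (-0.33) and Sfmbt2 (0.52) passed in stomach against intestine, in 3 and 4 of 6 fits, and Kin (0.37) in Barx1 intestine against stomach, in 2 of 6. Beside P2ry14, P2ry12 passed, as given above, and Selenot, Siah2, Med12l, Aadac and Sucnr1 did not. No neighbour of Adamdec1 on chromosome 14 (Nefl, Nefm, Adam7, Adam28, Stc1 and Nkx2-6) passed in any comparison, nor did Atp5c1, Itih2 and Prkcq beside Itih5, or Kpna4, Nmd3, Bche, Serpini2 and Pdcd10 beside Sptssb.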
